A study of Mus musculus with 26 samples.

Results

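Fatty acid uptake from plasma was followed through 10 genes in inguinal subcutaneous white fat of mice that lacked either both isoforms or the beta isoform of ChREBP, the carbohydrate-responsive transcription factor encoded by Mlxipl. The 10 genes were Lpl, Gpihbp1, Lmf1, Angptl4, Cd36, Vldlr, Fabp4, Fabp5, Slc27a1 and Slc27a4. They were taken by name, and every probe that carries one of these names in the scanner files was kept. This gave 19 probes of the 40168 in the deposited value table, and 10 of its 26154 gene names. Of the genes, 5 had 1 probe and the other 5 had several. All 19 probes were well above background on all 26 arrays, so no member was lost to a filter on dim spots. Where a gene had several probes, it is described at its brightest probe, the one with the highest mean over all arrays, and the other probes are given beside it.

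Each of the 26 arrays was hybridised with RNA from the fat of 1 male C57BL6/J mouse. Before the tissue was taken, every mouse went 24 h without food and was given food and a 20% glucose drink over the next 18 h, a regimen that switches lipogenesis on. The total ChREBP KO group (n = 7) was null for Mlxipl in the whole body and lacked both isoforms. The ChREBPbeta KO group (n = 5) carried a CRISPR/Cas9 deletion of the exon that only the beta isoform uses, also in the whole body. Each KO had WT mice of its own line (n = 7 in each line), and the age of the mice is not given in the sources used here. The comparisons asked whether genes for uptake of plasma lipid are higher where ChREBP is missing and transcripts of lipogenesis genes are lower.

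In well-fed fat, fatty acids come both from synthesis inside the adipocyte and from lipoproteins in blood. Lipoprotein lipase (Lpl) is made by adipocytes, matures in the endoplasmic reticulum with the help of Lmf1, and is carried by Gpihbp1 to the inner face of the capillary, where it hydrolyses the triglyceride of chylomicrons and VLDL. Angptl4 inactivates the lipase, and the VLDL receptor (Vldlr) brings lipoproteins close to it. The released fatty acids pass the adipocyte membrane with the help of Cd36, Slc27a1 (FATP1) and Slc27a4 (FATP4), and the carriers Fabp4 and Fabp5 bind them in the cytosol.

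The median intensity of the arrays lay between 59 and 107.5, and 70.2% to 76.5% of their probes were well above background. Mlxipl itself was read by 3 probes, and where they lie relative to the deleted stretches is not settled by the sources used here. Its brightest probe (A_55_P2119957) fell from 16.07 ± 0.25 (SD, n = 7) to 13.78 ± 0.14 (n = 7) log2 units in total ChREBP KO mice and from 15.68 ± 0.31 (n = 7) to 14.16 ± 0.19 (n = 5) in ChREBPbeta KO mice, without overlap in either line (exact two-sided permutation p = 0.000583 and 0.00126, the smallest each design allows). All values below are log2 intensities on the quantile-normalized scale of the deposited table, differences are KO minus WT on that scale, and standard errors (SE) and adjusted p values come from 1 limma fit of the 4 group means over all probes. In that fit Mlxipl probe A_55_P2728555 differed by -0.90 ± 0.12 in total ChREBP KO (adjusted p = 2.34e-06) and by -0.68 ± 0.14 in ChREBPbeta KO (adjusted p = 0.0596), without overlap in either line. The third probe, A_55_P2045158, overlapped in both lines. It differed by -0.13 ± 0.07 in total ChREBP KO (adjusted p = 0.159) and by 0.04 ± 0.08 in ChREBPbeta KO (adjusted p = 0.974).

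In total ChREBP KO fat, 8 of the 10 uptake genes changed (adjusted p under 0.05), where 45.9% of all genes on the array did. Lpl, Vldlr, Cd36, Gpihbp1, Lmf1 and Fabp4 were higher and Slc27a1 and Angptl4 were lower, against 25.7% of all genes called higher and 20.2% called lower. In 3 of the 10 genes, Lpl, Vldlr and Cd36, all 7 KO arrays lay above all 7 WT arrays. For 14.6% of all genes the groups did not overlap. By probe, 16 of 19 were called (45.5% of all probes) and 10 of 19 did not overlap (14% of all probes). The median change of the 10 genes was 0.15, beside 0.05 for all genes. In ChREBPbeta KO fat none of the 10 was called by limma (3 at an unadjusted p under 0.05, which 7.71% of all genes had), where 0.0497% of all genes were called, and for none did the arrays separate, as they did for 0.356% of all genes. The mean of 14 adipocyte markers was also higher in total ChREBP KO fat, at 15.65 to 15.85 against 14.72 to 15.23 in its WT. In whole tissue, fewer cells of a type and less RNA per cell cannot be told apart.

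**Figure D1:**
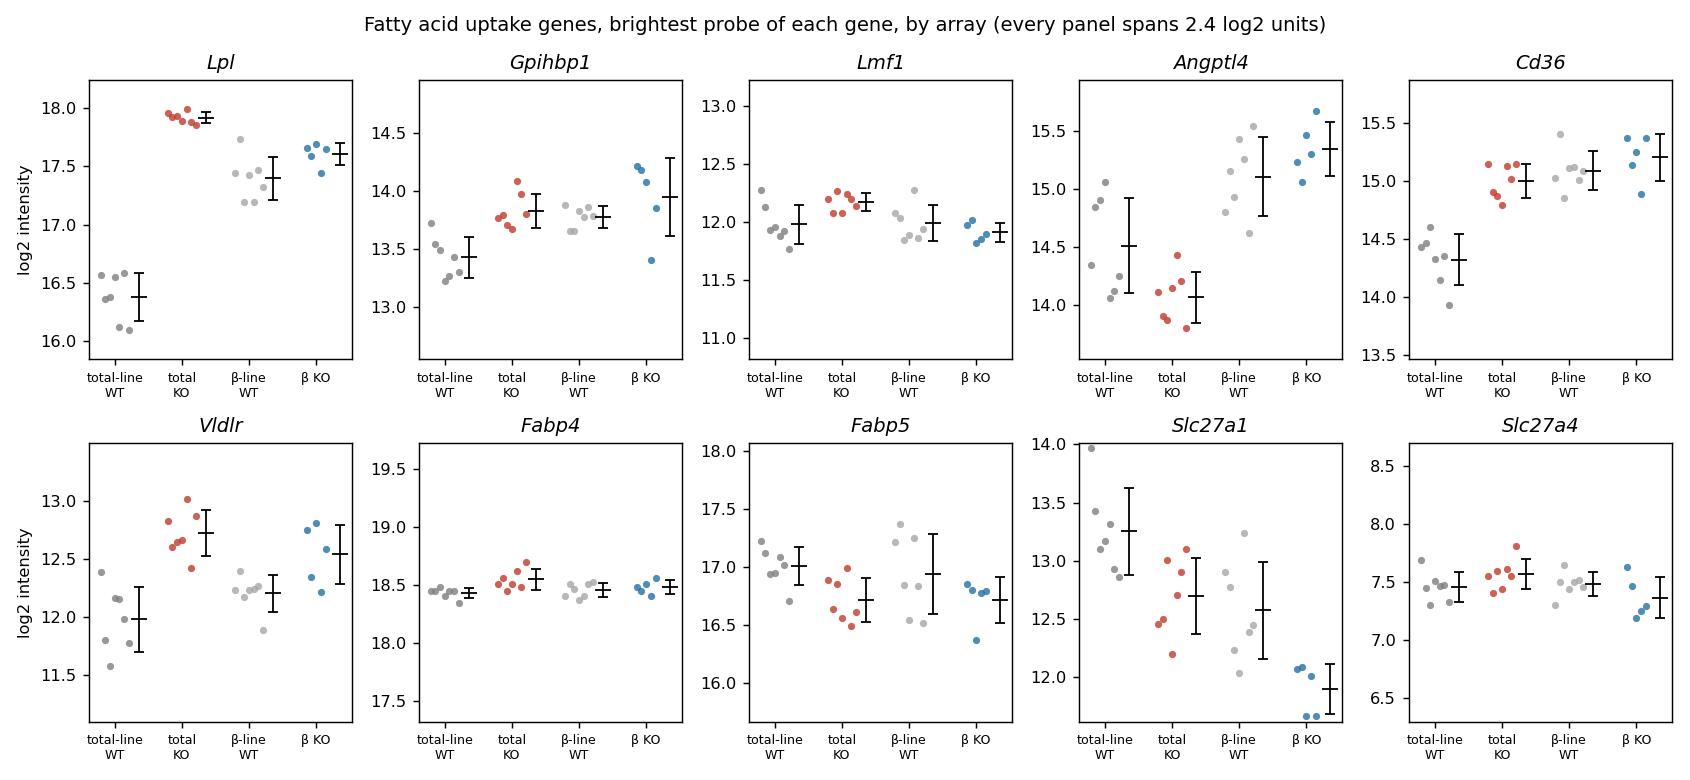
Log2 intensity of the brightest probe of each of the 10 genes on each of the 26 arrays (points), with group mean and SD (bars); β stands for ChREBPbeta, and every panel spans the same number of log2 units. The 7 total ChREBP KO arrays sit between 17.86 and 18.00 for Lpl, above every other array, while for Cd36 they sit above the WT arrays of their own line and among those of the ChREBPbeta line.

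Lpl was read by 6 probes, 3 of them designed on its RefSeq transcript NM_008509. Of these, the 2 at chr8:71425050-71425109 and chr8:71419652-71419711 (mm9, plus strand) are printed here because they carried the largest changes of all 19 probes, and both have at least 1 reading frame without a stop codon over their 60 bases.
A_52_P257812: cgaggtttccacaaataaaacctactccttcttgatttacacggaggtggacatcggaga
A_66_P123790: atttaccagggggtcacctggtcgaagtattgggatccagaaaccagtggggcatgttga

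At the brightest Lpl probe (A_51_P259296), the lowest, median and highest WT arrays of the total line read 16.09, 16.37 and 16.58, and the total ChREBP KO arrays 17.86, 17.92 and 18.00. All KO arrays were thus above all WT arrays, and the KO group was the tighter of the pair (SD 0.05 against 0.21). Lpl rose by 1.54 ± 0.08 (SE), a fold of 2.91 (adjusted p = 2.65e-13). The 2 probes shown rose more, by 1.94 ± 0.12 (fold 3.85) and 2.00 ± 0.15 (fold 4.00). The 3 probes designed on other transcripts of the locus (AK170106, AK154419 and ENSMUST00000101463) rose by 1.19 ± 0.14, 1.15 ± 0.17 and 1.04 ± 0.15. All 6 probes were therefore called, and in all 6 the KO and WT arrays did not overlap. Within the 4 wash batches, each of which held arrays of both groups, the difference at the brightest probe was 1.37, 1.57, 1.61 and 1.53.

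In the other line, Lpl stood at 17.19, 17.43 and 17.73 (lowest, median, highest of 7 WT arrays), and the 5 ChREBPbeta KO arrays read 17.59, 17.66, 17.45, 17.65 and 17.69. The groups overlapped, and the difference of 0.21 ± 0.09 was not called (adjusted p = 0.575). Its 95% interval ran from 0.02 to 0.40, so that it did not reach the rise of the total KO. The 3 probes on NM_008509 differed by 0.21, 0.40 and 0.46 and the other 3 by -0.32, -0.07 and -0.16, none of them called. The effects of both deletions differed for Lpl (interaction -1.33 ± 0.12, adjusted p = 3.68e-08), and all 6 probes passed this test, where 22.5% of all probes and 23.2% of all genes did. WT mice of the ChREBPbeta line had more Lpl signal than WT mice of the total line, by 1.02 ± 0.08 (adjusted p = 3.31e-09), again without overlap. All 7 total ChREBP KO arrays were nevertheless above all 19 other arrays.

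**Figure D2:**
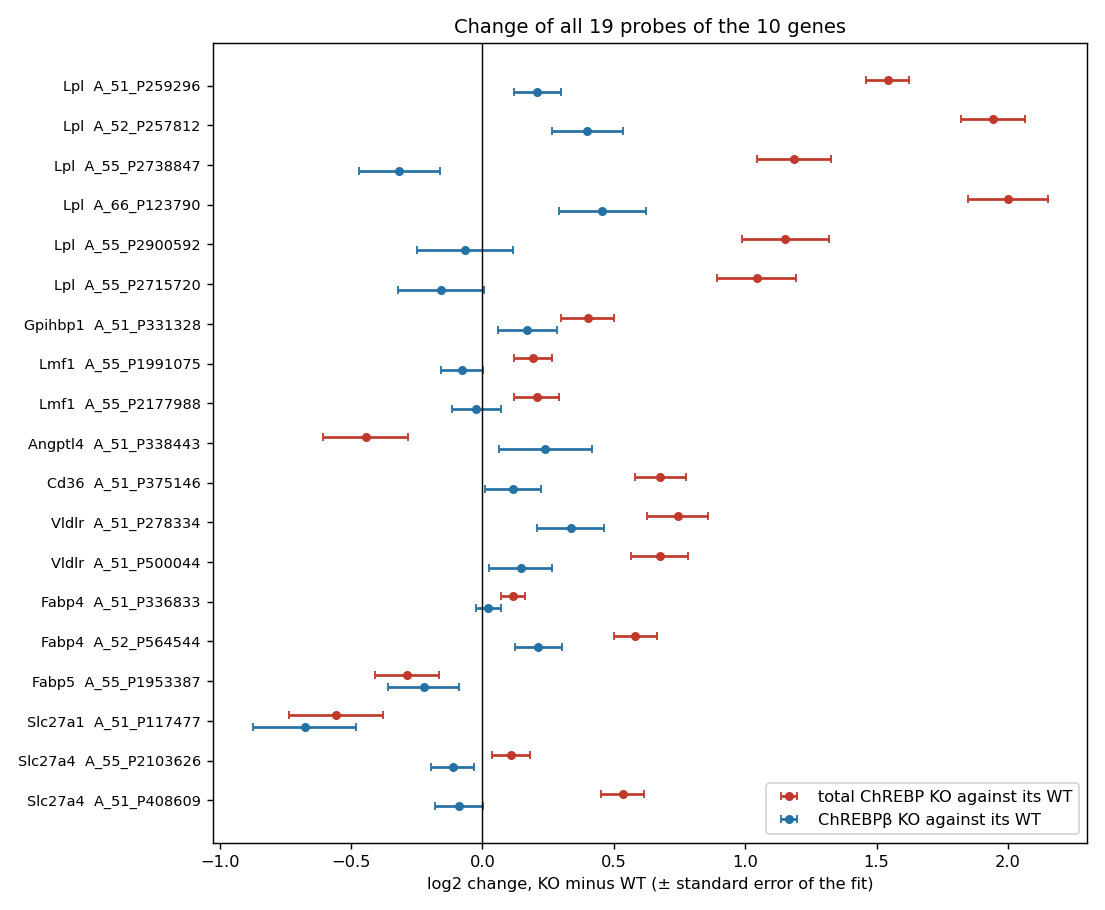
Log2 change (KO minus WT, ± SE) of all 19 probes in total ChREBP KO (red) and in ChREBPbeta KO (blue). The 6 Lpl probes lie between 1.04 and 2.00 in total ChREBP KO, to the right of every other probe, and between -0.32 and 0.46 in ChREBPbeta KO.

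The partners of the lipase in its maturation and transport moved little. Gpihbp1 was read by 1 probe at chr15:75428484-75428543 (mm9, plus strand), shown here because Gpihbp1 marks capillary endothelium and not adipocytes.
A_51_P331328: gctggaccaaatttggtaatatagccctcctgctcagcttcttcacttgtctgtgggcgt

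Gpihbp1 stood at 13.23, 13.43 and 13.72 on the lowest, median and highest WT arrays and at 13.67, 13.80 and 14.09 on the total ChREBP KO arrays. Of the 7 KO arrays, 5 were above all WT arrays. Gpihbp1 rose by 0.40 ± 0.10, a fold of 1.32 (adjusted p = 0.00225). The ChREBPbeta KO arrays read 14.18, 14.22, 13.40, 13.86 and 14.08 against 13.66 to 13.88 in their WT, which they enclosed (difference 0.17, 95% interval -0.06 to 0.40, adjusted p = 0.793). Within wash batches the difference in the total line was 0.06, 0.19, 0.63 and 0.52.

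Lmf1, the maturation factor, had WT arrays at 11.77, 11.93 and 12.28 and total ChREBP KO arrays at 12.08, 12.20 and 12.27, so that the KO arrays fell inside the WT range. Its change of 0.19 ± 0.07 was called (adjusted p = 0.0328), while its dimmer probe differed by 0.21 ± 0.09 and was not called (adjusted p = 0.0503). The call of the brightest probe rested on single arrays: it was lost without any 1 of 8 arrays, total-line WT replicates 1, 6, 7 and 8 and KO replicates 1, 2, 4 and 5, with adjusted p up to 0.0859. In ChREBPbeta KO the difference was -0.08 (95% interval -0.24 to 0.09). Lmf1 turned to -0.14 in wash batch 1, where the other 3 batches gave 0.24, 0.24 and 0.32.

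Angptl4, the secreted inhibitor of the lipase, moved opposite to Lpl in the total line. Its WT arrays read 14.07, 14.35 and 15.06 and its total ChREBP KO arrays 13.81, 14.11 and 14.43, with 3 KO arrays below all WT arrays. The fall of 0.44 ± 0.16 on the log2 scale (fold 0.735, adjusted p = 0.0271) was lost without any 1 of 5 arrays (total-line WT replicates 1, 3 and 5 or KO replicates 2 and 7; adjusted p up to 0.0724) and under 11 of 17 other settings. In the ChREBPbeta line, WT arrays ran from 14.62 to 15.54 and KO arrays read 15.06, 15.23, 15.30, 15.67 and 15.47, a difference of 0.24 ± 0.18 (adjusted p = 0.832). The effects of both deletions on Angptl4 differed by 0.68 ± 0.24 (adjusted p = 0.0411), a call lost under 9 of 16 other settings. All total ChREBP KO arrays were below all 12 arrays of the ChREBPbeta line for Angptl4, and WT mice of that line exceeded WT mice of the total line by 0.59 ± 0.16 (adjusted p = 0.0039).

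Of the genes for passage of fatty acids through the membrane, Cd36 rose and Slc27a1 fell in whole-tissue RNA of total ChREBP KO. Cd36, the main fatty acid translocase of fat, stood at 13.94, 14.36 and 14.61 on WT arrays and at 14.80, 15.02 and 15.15 on KO arrays, without overlap. The rise was 0.68 ± 0.10, a fold of 1.60 (adjusted p = 4.74e-06), and it lay between 0.33 and 0.94 in the 4 wash batches. In the ChREBPbeta line, WT arrays ran from 14.85 to 15.41 with a median of 15.09, and KO arrays read 15.14, 15.37, 14.89, 15.37 and 15.25 (difference 0.12, 95% interval -0.10 to 0.34, adjusted p = 0.897). The total ChREBP KO level was thus not above that of the other line, and 1 of its 7 arrays was below every ChREBPbeta-line WT array. WT mice of the ChREBPbeta line exceeded WT mice of the total line by 0.76 ± 0.10 for Cd36 (adjusted p = 8.04e-07), a call lost with the adipocyte score or the lymphocyte and muscle scores in the fit (0.17 to 0.33 over these 3 fits). The effects of both deletions on Cd36 differed (interaction -0.56 ± 0.14, adjusted p = 0.0072), a call lost under 4 of 16 other settings, with the sign turned to 0.16 by the adipocyte score.

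Slc27a1, an acyl-CoA synthetase that promotes fatty acid uptake, read 12.86, 13.17 and 13.97 on WT arrays and 12.19, 12.71 and 13.10 on total ChREBP KO arrays. Of the 7 KO arrays, 4 were below all WT arrays. It fell by 0.56 ± 0.18 on the log2 scale (fold 0.680, adjusted p = 0.0129), but wash batch 4 gave 0.11 where the other 3 gave -1.49, -0.26 and -0.79. The call of Slc27a1 was lost under 7 of 17 other settings, which were both scalings in place of quantile normalization, slide as a fixed block and the 4 fits with marker scores (-1.32 to 0.07, adjusted p from 0.0617 to 0.859). Slc27a1 had the largest difference of the 10 genes in ChREBPbeta KO: the KO arrays read 12.08, 12.07, 12.01, 11.66 and 11.66, and the WT arrays 12.04, 12.45 and 13.24 at their lowest, median and highest. Below all WT arrays were 3 of the 5 KO arrays. The difference of -0.68 ± 0.20 (95% interval -1.08 to -0.27) did not pass the adjustment over all probes (adjusted p = 0.305), and it did not differ detectably from that in the total line (interaction -0.12 ± 0.26, adjusted p = 0.79).

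Slc27a4, its relative, was not called at its brighter probe, with a difference of 0.11 ± 0.07 (adjusted p = 0.232) in total ChREBP KO and -0.11 ± 0.08 in ChREBPbeta KO. Its dimmer probe (A_51_P408609) disagreed in size: it stood at 5.47 to 5.87 on WT arrays and at 5.89 to 6.47 on total ChREBP KO arrays, without overlap, and rose by 0.53 ± 0.08 (adjusted p = 1.15e-05). Both probes were well above background on every array but ranked no higher than 19872 among the 40168 probes of any array.

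Vldlr, the receptor that holds triglyceride-rich lipoproteins, stood at 11.58, 11.99 and 12.39 on the lowest, median and highest WT arrays of the total line and at 12.43, 12.67 and 13.02 on total ChREBP KO arrays. No KO array overlapped with the WT arrays. Vldlr rose by 0.74 ± 0.12, a fold of 1.67 (adjusted p = 1.38e-05), and its second probe rose by 0.68 ± 0.11 (adjusted p = 2.11e-05). In the ChREBPbeta line the WT arrays ran from 11.89 to 12.40 and the KO arrays read 12.35, 12.75, 12.22, 12.58 and 12.81. This difference of 0.34 ± 0.13 (95% interval 0.08 to 0.60) was not called (adjusted p = 0.492), and the test of both deletions against each other did not pass at this probe (interaction -0.41 ± 0.17, adjusted p = 0.0906) but did at the second (-0.53 ± 0.16, adjusted p = 0.0202). The WT groups of the 2 lines differed by 0.23 ± 0.12 for Vldlr (adjusted p = 0.118), and all 7 total ChREBP KO arrays were above all WT arrays of the ChREBPbeta line as well.

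Inside the cell, the carrier Fabp4 is among the most abundant transcripts of fat, and its brightest probe (A_51_P336833) held rank 3 to 13 on every array. At such ranks quantile normalization leaves few possible values: the 26 arrays shared 11 of them, and up to 6 arrays agreed to the second decimal. There Fabp4 read 18.35, 18.45 and 18.49 on WT and 18.45, 18.51 and 18.70 on total ChREBP KO arrays, a rise of 0.12 ± 0.04 (adjusted p = 0.038). The call was lost without any 1 of 7 arrays (total-line WT replicates 5 to 8 and KO replicates 3, 4 and 7, adjusted p up to 0.1). It was kept under 7 of 17 other settings, and either scaling that replaced quantile normalization lost it (0.09 in both, adjusted p = 0.49 and 0.46). The second Fabp4 probe, at chr3:10208442-10208501 (mm9, minus strand), is less bright and is shown because it was free of this limit.
A_52_P564544: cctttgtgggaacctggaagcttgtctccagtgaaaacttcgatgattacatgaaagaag

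At this probe Fabp4 stood at 16.60, 16.83 and 16.99 on WT arrays and at 17.22, 17.36 and 17.54 on total ChREBP KO arrays, without overlap. It rose by 0.58 ± 0.08 (adjusted p = 3.6e-06), and by 0.46 and 0.47 with the other scalings (adjusted p = 0.00124 and 0.00105). Fabp5, the second fatty acid carrier of fat, went the other way without a call. Its WT arrays read 16.71, 17.02 and 17.22 and its KO arrays 16.49, 16.64 and 16.99, a difference of -0.29 ± 0.12 (adjusted p = 0.0594) that passed under 5 of 17 other settings, among them both scalings in place of quantile normalization (-0.39 in both, adjusted p = 0.042 and 0.0442). It also passed without any 1 of 5 arrays (adjusted p down to 0.0345). In ChREBPbeta KO, Fabp4 differed by 0.02 and 0.21 at its 2 probes and Fabp5 by -0.22 ± 0.13 (adjusted p = 0.764).

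At the brightest probes of the 10 genes, the interaction test therefore passed for Lpl, Cd36 and Angptl4 (23.2% of all genes). By probe, 11 of 19 passed (22.5% of all probes). Among them were the dimmer probes of Vldlr, Fabp4 (-0.37, adjusted p = 0.0309) and Slc27a4 (-0.62, adjusted p = 0.000771). At the brightest probes the WT groups of the 2 lines differed in 5 genes, where 45.8% of all genes did. Lpl, Cd36, Angptl4 and Gpihbp1 (0.35 ± 0.10, adjusted p = 0.00653) were higher in the ChREBPbeta line, 2 of the 10 without overlap (16.9% of all genes). Slc27a1 was lower (-0.68 ± 0.18, adjusted p = 0.00302). Fabp4 and Slc27a4 were also higher in WT mice of that line at their dimmer probes (0.27 and 0.41, adjusted p = 0.00801 and 0.000249). In this comparison 56.4% of all called probes were higher, or 48.3% and 43.0% with the scalings in place of quantile normalization. With the median intensity scaling, all probes together had a median difference of -0.08 in place of 0.03. The interaction and the comparison of WT groups share their WT arrays with the KO comparisons, so they are no independent evidence.

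Lipogenesis genes fell in the same total ChREBP KO arrays. Of 11 genes of de novo lipogenesis that were measured, 8 were called lower and 1 higher in total ChREBP KO (median -1.37), and none was called in ChREBPbeta KO (median -0.24). Elovl6, which elongates palmitate, fell by 3.30 ± 0.14 (adjusted p = 7.69e-15) and Acaca, which makes malonyl-CoA, fell by 2.02 ± 0.11 (adjusted p = 3.5e-13). Fasn, the fatty acid synthase, fell by 0.31 ± 0.06 (adjusted p = 0.000338), and the desaturase Scd1 differed by -0.02 ± 0.09 (adjusted p = 0.875).

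Between groups, Lpl was thus highest where the mean level of the lipogenesis genes was lowest. Over the 26 arrays with group means subtracted no such opposition was seen: Pearson's r of Lpl with the mean of the lipogenesis genes was 0.15. It was 0.44, 0.21 and 0.21 in total-line WT, total ChREBP KO and ChREBPbeta-line WT (7 arrays each). For the 5 ChREBPbeta KO arrays alone r was not computed. There, in order of rising lipogenesis mean (16.42, 16.68, 16.71, 16.75 and 16.89), Lpl read 17.69, 17.66, 17.65, 17.45 and 17.59. The lowest mean thus went with the highest Lpl. Fabp5, Slc27a1 and Lmf1 followed the lipogenesis genes within groups, with r of 0.81, 0.76 and 0.68 over the 26 arrays. For Slc27a1 r was 0.97, 0.57 and 0.86 in the 3 groups of 7, and for Fabp5 it was 0.85, 0.57 and 0.91. Both sides of these correlations come from the same arrays and share their normalization.

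**Figure D3:**
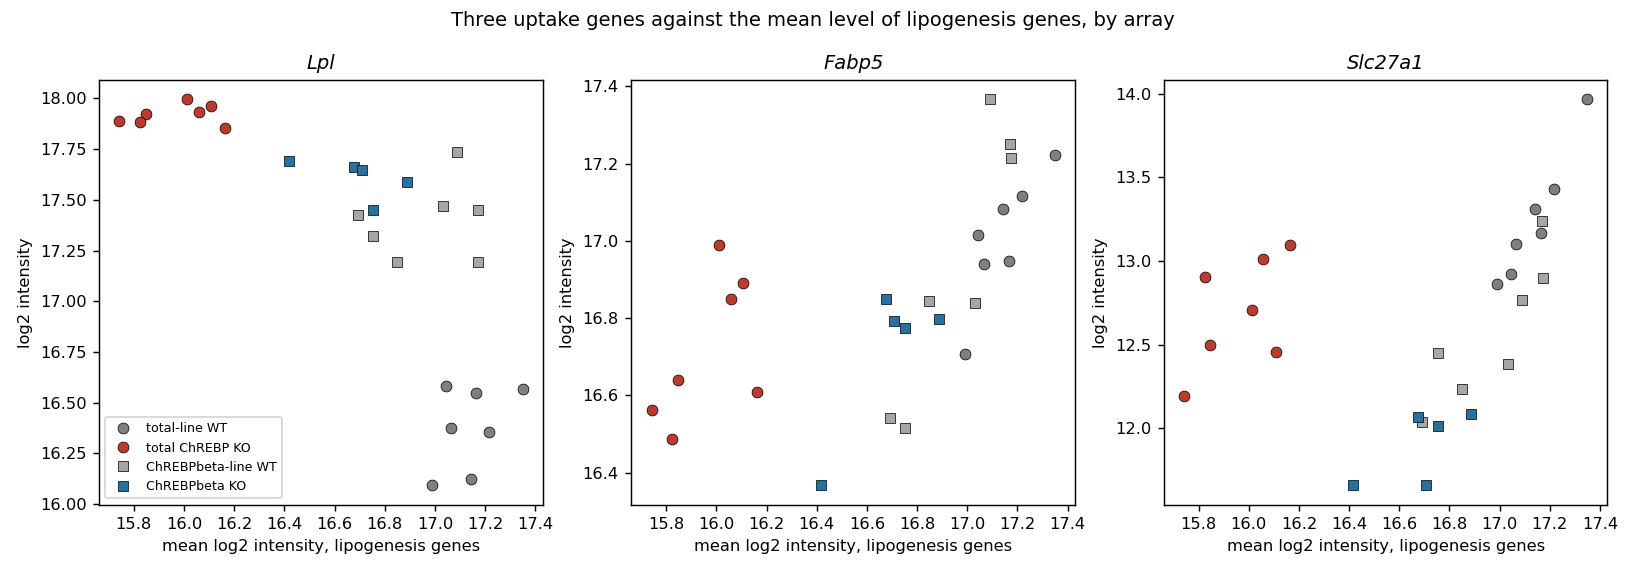
Log2 intensity of Lpl, Fabp5 and Slc27a1 against the mean log2 intensity of the 11 lipogenesis genes, 1 point per array, coloured by group. Lpl is highest in total ChREBP KO. With group means subtracted it shows no downward slope (r = 0.15), whereas Fabp5 and Slc27a1 slope upward (r = 0.81 and 0.76).

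Other genes of the uptake pathway were taken from lists of the lipase system, receptors, transporters, carriers and acyl-CoA synthetases. Of 38 that are not among the 10, 17 were called higher and 10 lower in total ChREBP KO (median 0.26), beside 25.7% and 20.2% of all genes, and none was called in ChREBPbeta KO by limma. The count in total ChREBP KO dropped to 9 and 5 with lymphocyte and muscle scores in the fit and to 4 and 1 with an adipocyte score.

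In the lipase group, Lmf2, a relative of Lmf1, rose by 0.27 ± 0.04 (adjusted p = 2.1e-05). The heparan sulfate proteoglycans Gpc1 and Hspg2 rose by 1.15 ± 0.17 and 0.55 ± 0.11 (adjusted p = 9.34e-06 and 0.000235). On the list of lipase inhibitors, activators and other lipases of the vessel, 6 of 11 genes were called lower and 3 higher, Angptl4 included. Of all genes, 20.2% were called lower and 25.7% higher. Angptl8 (Gm6484 on this array), a regulator of the lipase in the fed state, stood at 15.38 to 16.40 on WT and 13.35 to 14.91 on KO arrays and fell by 1.85 ± 0.21 on the log2 scale (adjusted p = 1.35e-07). Its effect differed between the deletions (interaction 1.82, adjusted p = 0.000189). Apoc3, an apolipoprotein that inhibits the lipase, fell by 1.67 ± 0.45 (adjusted p = 0.00379), and Apoa5, which activates it and ranged from 5.29 to 10.49 on WT arrays, fell by 1.84 ± 0.76 (adjusted p = 0.0495).

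On the list of lipoprotein receptors and their partners 5 of the 6 genes were called higher, Vldlr with them, beside 25.7% of all genes. Lrp1, a receptor for lipoprotein remnants, rose by 0.80 ± 0.07 (adjusted p = 2.1e-09), its ligand Apoe by 0.70 ± 0.05 (adjusted p = 1.96e-10) and the HDL receptor Scarb1 by 0.48 ± 0.10 (adjusted p = 0.000608). On the membrane list the caveolar genes Cav1 and Cav2 rose by 1.31 ± 0.13 and 1.11 ± 0.11 (adjusted p = 2.11e-08 and 2.04e-08), and Slc27a2, a relative of Slc27a1, fell by 2.71 ± 0.62 (adjusted p = 0.000921) from WT arrays that ranged from 5.59 to 10.77.

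Among carriers, Fabp3 fell by 1.73 ± 0.69 (adjusted p = 0.0427), Fabp7 fell by 0.42 ± 0.15 (adjusted p = 0.0273) and Fabp12 rose by 0.51 ± 0.17 (adjusted p = 0.0174). Fabp3 varied widely, from 7.41 to 11.58 on WT and from 6.65 to 9.99 on KO arrays. Fabp7 and Fabp12 were low in signal, at 5.22 to 6.80 and 6.56 to 7.46 on WT arrays. Of the acyl-CoA synthetases, which trap fatty acids in the cell, Acsl1 rose from 15.63 to 16.07 on WT arrays to 17.05 to 17.47 on KO arrays, by 1.40 ± 0.08 (adjusted p = 1.94e-12). Acsl3 rose by 0.41 ± 0.17 (adjusted p = 0.0484) and Acsl5 fell by 1.18 ± 0.16 (adjusted p = 1.54e-06). The change of Acsl1 was thus close in size to that of Lpl.

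Marker RNA of several cell types differed between the groups of the total line and between the WT groups of the 2 lines. All 14 adipocyte markers were well above background on all arrays. Their mean did not overlap between the groups of the total line, and 12 of the 14 were called higher in total ChREBP KO (median 0.63). The 15 lymphocyte markers were all called lower (median -2.45), from a mean of 10.77 to 12.40 in total-line WT to 7.75 to 11.07 in total ChREBP KO and 7.16 to 8.72 in the ChREBPbeta line. Of 14 endothelial markers 9 were called higher (median 0.26), of 10 thermogenic adipocyte markers 6 lower and 1 higher (median -1.69), and 3 of 12 skeletal muscle markers higher with a median of 2.69. The skeletal muscle mean varied widely within both groups, from 6.16 to 12.12 in total-line WT and from 6.38 to 13.43 in total ChREBP KO. Of 10 macrophage markers 1 was called higher and 2 lower, and of 7 epithelial and 5 red blood cell markers none was called by limma. In ChREBPbeta KO no marker of these lists was called by limma.

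**Figure D4:**
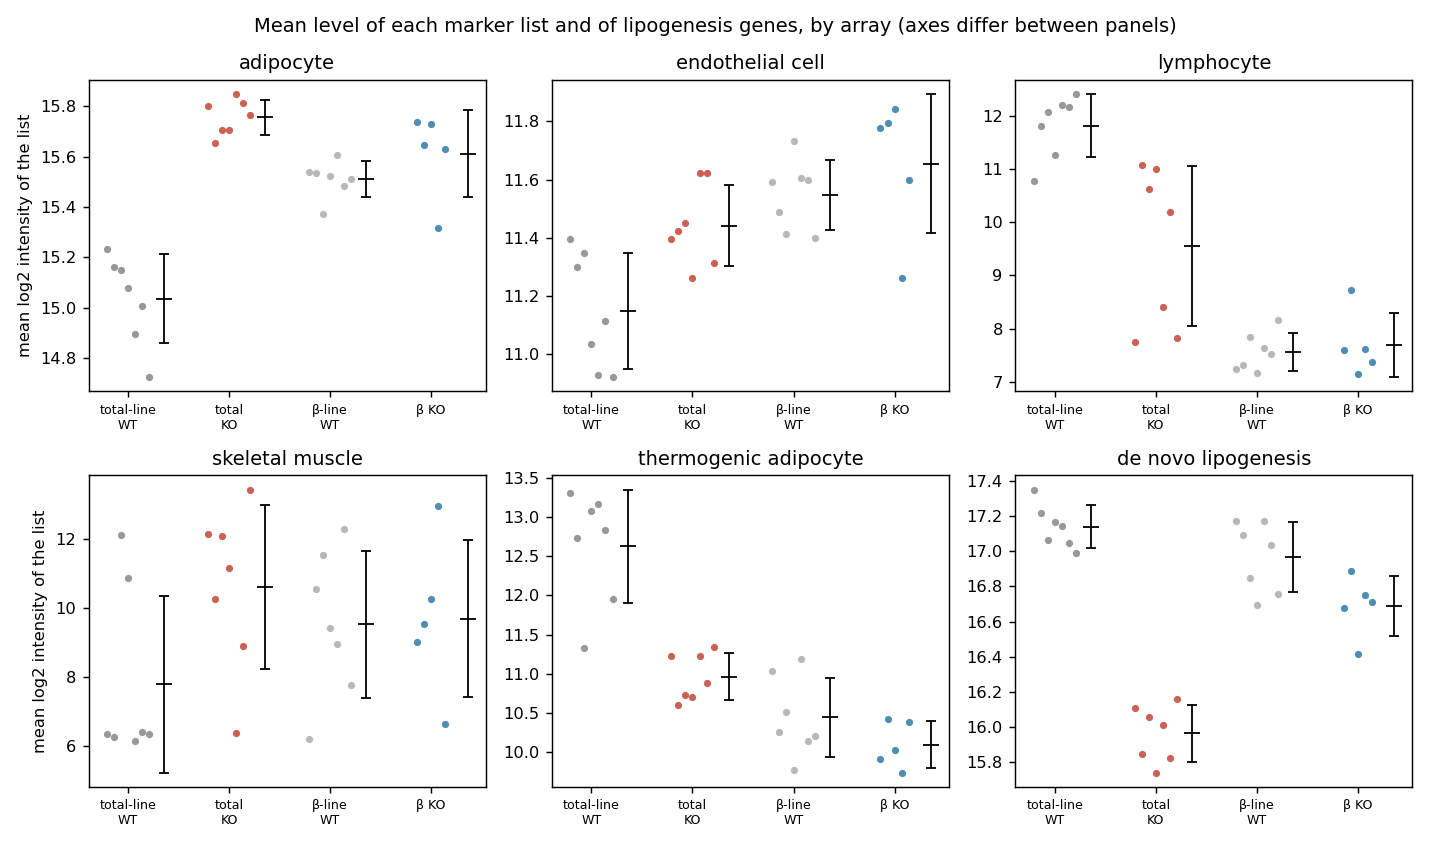
Mean log2 intensity of 5 marker lists and of the lipogenesis genes on each array (points), with group mean and SD (bars); axes differ between panels. Total-line WT arrays lie below all others for adipocyte markers (14.72 to 15.23), while for lymphocyte (10.77 to 12.40) and thermogenic adipocyte markers (11.33 to 13.30) their range reaches highest but overlaps with that of total ChREBP KO (7.75 to 11.07 and 10.61 to 11.35).

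At its brightest probe, the rise of Lpl (1.54 ± 0.08) was above that of each of the 14 endothelial markers (0.01 to 0.71). It was also above each of the 14 adipocyte markers (0.13 to 1.53), but Adrb3 at 1.53 was closer than the SE. The 3 Lpl probes on other transcripts rose less than Adrb3 (1.19, 1.15 and 1.04). Of the adipocyte markers, 7 had larger differences than Cd36 (0.68) and 6 than Vldlr (0.74). Of the 14 endothelial markers, 4 lay above Gpihbp1 (0.40). With the mean of lymphocyte and of muscle markers as covariates, Lpl still rose by 1.43 ± 0.12 (adjusted p = 1.47e-08), Cd36 by 0.46 ± 0.13 (adjusted p = 0.0201), Vldlr by 0.47 ± 0.14 (adjusted p = 0.0281) and Gpihbp1 by 0.42 ± 0.14 (adjusted p = 0.046), and these 4 were the members called, where 13.6% of all probes were. With the endothelial mean added, Lpl alone was called (1.33 ± 0.12, adjusted p = 1.32e-07).

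With the mean of the adipocyte markers as a covariate, which contain none of the 10 genes, Lpl alone was called again, where 5.02% of all probes were (1.05 ± 0.17, adjusted p = 0.000619). Of the 6 Lpl probes 2 passed in that fit, with changes of 0.34 to 1.22 over all 6. Vldlr then differed by 0.24 ± 0.27 (adjusted p = 0.703), and Cd36, Gpihbp1 and Lmf1 by -0.17, -0.41 and -0.29, none of them called. Since the adipocyte mean does not overlap between these groups, this fit separates group and marker level only by the spread within groups. With the thermogenic marker mean, Slc27a1 and Fabp5 turned to 0.07 and 0.11, uncalled, and Lpl rose by 1.59 ± 0.14 (adjusted p = 2.24e-08). The part of tissue make-up in the changes of the other members was not tested beyond these fits.

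**Figure D5:**
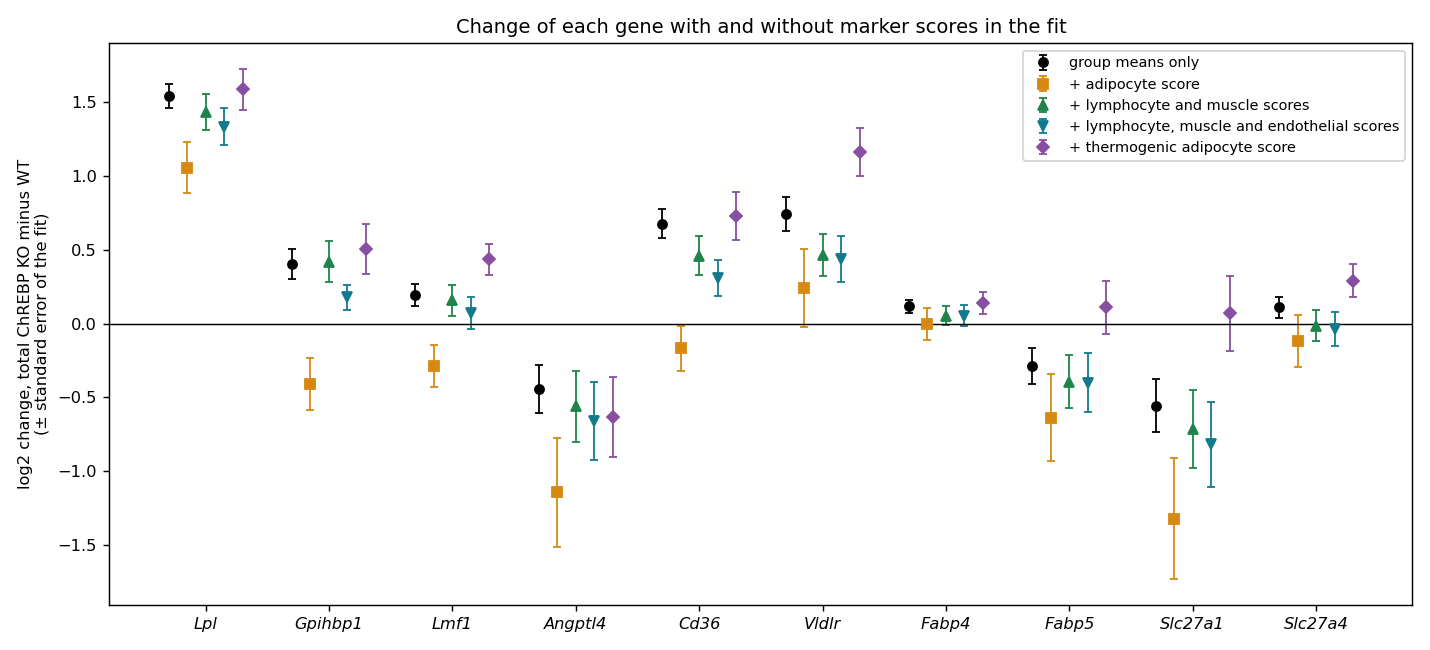
Log2 change in total ChREBP KO (± SE) of each gene at its brightest probe, in the fit of group means only (black) and with marker means added as covariates (colours). Lpl stays between 1.05 and 1.59 in all of them, while Cd36, Gpihbp1 and Lmf1 are above 0 without and below 0 with the adipocyte mean.

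Genes with patterns most like those of the 3 members that changed most were found by Pearson's r over the 26 arrays. For Lpl they were Sulf2, Emc9 and Glb1l2 (r of 0.98, 0.98 and 0.97), for Cd36 Ric3, Dcst1 and Cttn (0.98, 0.97 and 0.97) and for Vldlr Gm3255, Drap1 and 4833439L19Rik (0.94, 0.92 and 0.91). With group means subtracted, Ric3 again came first for Cd36 (0.90), before Surf1 and Lrrc8d (0.89 for both). Auts2 came first for Lpl (0.81), with Sec23ip at 0.78, and Ndufa1 for Vldlr (0.86), and the remaining places were held by probes without a gene symbol. Among the members themselves, the closest pairs with group means subtracted were Lmf1 with Slc27a1 (0.82), Lmf1 with Fabp5 (0.67) and Lpl with Cd36 (0.64).

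RefSeq promoter windows (GRCm38.p6, 250 bases before to 50 after a start) were at hand for 5 of the 10 genes, Cd36, Vldlr, Lmf1, Slc27a1 and Slc27a4, with 8 windows. The E-box CACGTG, searched on both strands, was found in 1 of the 8, a window of Slc27a1, 202 bases before the start, and in 7.15% of all 32851 windows. The carbohydrate response element was in none of the 8 and in 0.119% of all. These are matches of letters in these windows only.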

How the data were processed

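RNA of 26 mouse fat samples was measured on 1-colour Agilent arrays. Per the labels and the study's methods, spot intensities were read with Agilent Feature Extraction 10.10.1.1, and the authors took the median pixel intensity, kept spots by quality weights in limma, quantile normalized, and took the median of replicate probes. The authors deposited these as log2 values (40168 probes, 97 missing), with no background subtraction stated. Each column matched its own array best (lowest r 0.999), with a slope near 1, so the log2 values were used as deposited. Scanner intensity values served for alternatives.

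Group means were fitted with limma 3.58.1 in R 4.3.3 (lmFit, eBayes, 22 residual degrees of freedom), with Benjamini-Hochberg adjustment over all probes and calls at an adjusted p of 0.05, without a fold limit. The fit was tested on simulated data. Named genes were all members, Mlxipl, 4 lipogenesis genes and, per pathway list, up to 3 others with the largest called change in total ChREBP KO. Members and lists were chosen with earlier results of these data known. Older array names were used for Angptl8 and Cavin1; 6 listed genes were not found. Groups come from sample titles; arrays are single mice, and their number limits the precision. Probe positions are those of the scanner files (mm9).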

Additional observations from a re-analysis of the deposited data

Results flagged for a closer look

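Of the 40 groups of arrays tested over the 10 genes, 1 held an array far from the others: Fabp5 stood at 16.37 in ChREBPbeta KO replicate 6, where the nearest of the other 4 arrays read 16.77. Chance alone sets about 1 in 20 such groups apart.

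The effects of both deletions differed from each other in limma's test of the interaction for 3 genes at their brightest probe: Lpl (-1.33), Angptl4 (0.68) and Cd36 (-0.56). The call for Angptl4 was lost without any 1 of 14 arrays (adjusted p from 0.0233 to 0.0832), and those for Lpl and Cd36 were kept without any single array. Under 16 other settings the call for Lpl was kept in all, and that for Cd36 was lost with slide as a fixed block (-0.61), with lymphocyte and muscle scores (-0.33), with the endothelial score added (-0.24) and with the adipocyte score, which turned it to 0.16.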

How the results depend on the processing

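The rise of Lpl in total ChREBP KO kept its call under all 17 other settings (1.05 to 1.73) and without any single array (1.49 to 1.58), and no member was called in ChREBPbeta KO under any of them. The count of members called in total ChREBP KO (8) became 3 with slide as a fixed block, 4 with lymphocyte and muscle scores, 1 with the adipocyte score and 1 with lymphocyte, muscle and endothelial scores, where 21.5%, 13.6%, 5.02% and 9.16% of all probes were called. The interaction count (3) became 1, 1, 2 and 1 in these fits (1.56%, 5.66%, 3.96% and 5.17% of all probes), 6 with the thermogenic score (28.7%), 5 with the mean of all probes (22.5%) and 2 to 5 without single arrays. The count between WT groups (5) became 3, 1, 3 and 1 (31%, 3.32%, 17.3% and 2.68%), and 3 with the thermogenic score (28.1%). The fits with 3 scores and with the thermogenic score were chosen after seeing the data. Mlxipl in ChREBPbeta KO stood at -1.54 at A_55_P2119957 with slide fixed (adjusted p = 0.28). At A_55_P2728555 it was called with array weights (-0.67) and the adipocyte score (-0.77), and ranged from -0.74 to -0.63 without single arrays, as A_55_P2045158 did from -0.013 to 0.11. Signs turned as follows, and the cause was not tested. With the adipocyte score, total ChREBP KO gave Cd36 -0.17, Gpihbp1 -0.41, Lmf1 -0.29, Fabp4 -0.0043 and Slc27a4 -0.12, and ChREBPbeta KO gave Cd36 -0.0043. The interaction gave Cd36 0.16, Fabp4 0.010, Gpihbp1 0.46, Lmf1 0.14, Slc27a1 0.54 and Vldlr 0.024, and the WT comparison Fabp4 -0.053, Gpihbp1 -0.18, Lmf1 -0.31, Slc27a4 -0.13 and Vldlr -0.10. With lymphocyte and muscle scores, Slc27a4 was -0.014 in total ChREBP KO, Slc27a1 0.050 in the interaction, and Fabp4 -0.092, Lmf1 -0.12, Slc27a4 -0.20 and Vldlr -0.37 between WT groups. With the endothelial score added these became Slc27a4 -0.038, Slc27a1 0.11, Fabp4 -0.092, Lmf1 -0.21, Slc27a4 -0.23 and Vldlr -0.40, with Gpihbp1 at -0.0080. With the thermogenic score, total ChREBP KO gave Fabp5 0.11 and Slc27a1 0.069, the interaction Fabp5 -0.25, and the WT comparison Fabp5 0.45 and Slc27a1 0.14. With slide fixed, Slc27a4 was -0.0089 in total and 0.015 in ChREBPbeta KO, the interaction gave Fabp5 -0.18, Gpihbp1 0.11 and Slc27a4 0.024, and the WT comparison Fabp5 0.041, Lmf1 -0.035 and Slc27a4 -0.10. With 75th percentile scaling of the median intensity, Fabp4 was -0.040 in ChREBPbeta KO and -0.12 between WT groups, where Slc27a4 was -0.089. With that of the processed signal these were -0.040, -0.14 and -0.046. Within wash batches, Lmf1 was -0.14 in batch 1, Fabp4 -0.019 in batch 2 and Slc27a1 0.11 in batch 4. Without single arrays the WT comparison ran from -0.14 to 0.0047 for Fabp5, -0.039 to 0.059 for Lmf1 and -0.0060 to 0.059 for Slc27a4, and the interaction from -0.0069 to 0.15 for Fabp5. The replicate numbers did not pair the arrays (r of deviations -0.36 to 0.51 over 6 pairs in the total line, 2 of them best with their own number, and -0.33 to 0.14 over 4 pairs in the other). With the replicate block, 6 members were called in total ChREBP KO, 0 in ChREBPbeta KO, 2 in the interaction and 5 between WT groups (41%, 0.0149%, 20.6% and 42.6% of all probes), with Lmf1 at -0.0018 in the last.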
